A study of Mus musculus with 9 samples.

Results

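The unfolded protein and ATF4 response genes are 42 genes, listed by symbol, of which 32 were measured among the 7449 features tested. By role they comprise 11 sensors and regulators, 15 chaperones and folding enzymes of the endoplasmic reticulum (ER), 4 genes of ER-associated degradation and 12 amino acid metabolism and tRNA charging genes known as targets of the transcription factor ATF4. They were read in bone-marrow-derived mast cells on 9 single-colour Illumina mouse Ref-8 beadchips, where biotin-labelled RNA binds beads that carry probes. The cells came from AhR null mice, AhR-d mice and normal control mice, all labelled C57BL/6J, with 3 arrays per genotype. AhR is the aryl hydrocarbon receptor, a ligand-activated transcription factor. The d allele is known for a receptor of lower ligand affinity. The labels name the genotypes of the mice and no construct, transgene or Cre. Marrow was grown for 4 weeks with 30% WEHI-3 conditioned medium, an IL-3 source, mast cells were enriched by removing other cells on magnetic beads, and the cells then stood for 4 h without cytokine. Each of 3 batches, as the labels call them, holds 1 array of every genotype. What a batch shares, the ages and the number of animals behind an array are not given in the sources used here, so p-values cover only the variation among these arrays, which may be technical.

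When misfolded protein accumulates in the ER, 3 membrane sensors act, encoded by Ern1, Eif2ak3 and Atf6. They raise chaperone and degradation genes through the factors XBP1 and ATF6, and through phosphorylation of the initiation factor eIF2-alpha they slow translation while favouring that of ATF4. ATF4 is also induced by amino acid shortage, through another kinase, and drives genes of amino acid synthesis, transport and tRNA charging. Mast cells fold, modify and store large amounts of granule protease, work that runs through the ER.

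The promoters were searched for the elements known for these responses. Sequences are those of RefSeq for build GRCm38.p6, where 37 of the 42 genes had an entry of 250 bases before to 50 bases after the annotated start. Both strands were searched for the ER stress element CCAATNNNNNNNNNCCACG, at which NF-Y and ATF6 are known to bind, for the C/EBP-ATF amino acid element core TGATGNAA, at which ATF4 is known to bind, and for the unfolded protein response element core TGACGTGG, known for XBP1. No matches overlapped. Atf6, Ppp1r15b, Manf, Hyou1 and Nars had no entry. The ER stress element lay in 8 of the 37 genes (21.6%), against 0.137% of all 27025 genes and 0.119% of all 32851 promoters of the same length. The matches, read along the element with its fixed letters in capitals and with the position of its first C relative to the start and plus the strand of the gene, were:
Hspa5 (position -65, plus strand of the promoter): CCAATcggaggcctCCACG
Calr (position -144, minus strand of the promoter): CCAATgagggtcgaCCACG
Hsp90b1 (position -212, plus strand of the promoter): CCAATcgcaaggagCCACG
Hsp90b1 (position -89, minus strand of the promoter): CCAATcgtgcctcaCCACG
Canx (position -145, plus strand of the promoter): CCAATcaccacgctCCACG
Pdia6 (position -98, plus strand of the promoter): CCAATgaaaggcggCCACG
Dnajc3 (position -105, plus strand of the promoter): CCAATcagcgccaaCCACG
Creld2 (position -108, minus strand of the promoter): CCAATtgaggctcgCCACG
Syvn1 (position -44, plus strand of the promoter): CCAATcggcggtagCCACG

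Of the 13 chaperone and folding genes with an entry 7 held a match, and the remaining match was in Syvn1. The amino acid element core lay in 7 of 37 genes (18.9%), against 4.51% of all genes and 3.97% of all promoters. These were Trib3, Herpud1, Aars, Asns, Chac1, Gars and Vldlr, among them 5 of the 11 amino acid targets with an entry. The unfolded protein response element core was found in 0 of 37 genes, against 0.714% of all genes and 0.676% of all promoters. A match is a match of letters in this window and was not tested for binding. The genes were listed for the responses that these elements are known for, so shares above those of all genes are no independent result. The upstream 250 bases of 3 genes follow, with matches in capitals. They are Hspa5 (chr2:34771840-34772089, plus strand) and Hsp90b1 (chr10:86705445-86705694, minus strand), for the chaperones, and Asns (chr6:7693210-7693459, minus strand), for the amino acid genes:
Hspa5: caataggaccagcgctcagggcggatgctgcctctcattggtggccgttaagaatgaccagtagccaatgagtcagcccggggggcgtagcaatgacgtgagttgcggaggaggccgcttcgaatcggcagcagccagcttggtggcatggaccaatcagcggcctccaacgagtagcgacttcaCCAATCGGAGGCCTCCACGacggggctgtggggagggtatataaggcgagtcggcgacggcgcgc
Hsp90b1: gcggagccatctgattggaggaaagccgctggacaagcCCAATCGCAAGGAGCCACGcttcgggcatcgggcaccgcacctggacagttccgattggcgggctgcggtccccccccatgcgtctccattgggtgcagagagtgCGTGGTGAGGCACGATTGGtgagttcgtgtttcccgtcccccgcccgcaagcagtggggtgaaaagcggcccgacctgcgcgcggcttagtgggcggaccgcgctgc
Asns: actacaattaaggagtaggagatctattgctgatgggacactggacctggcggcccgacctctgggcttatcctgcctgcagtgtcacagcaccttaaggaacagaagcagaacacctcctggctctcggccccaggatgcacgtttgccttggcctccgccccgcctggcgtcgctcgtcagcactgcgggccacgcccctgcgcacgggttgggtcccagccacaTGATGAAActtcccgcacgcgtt

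The summed normalised signal of mast cell markers was high on every array, at 212000 to 246000 in AhR null, 213000 to 223000 in AhR-d and 201000 to 222000 in control arrays over 14 of 15 markers. Much of this sum came from the brightest genes, such as Fcer1a and Cma1. The quantile normalisation used here gives every array the same set of values, so similar sums were partly fixed by the processing. Within the list Hdc was above control by 2.82 in AhR null (limma, adjusted p = 9.57e-06) and 1.30 in AhR-d (adjusted p = 0.0463). The mast cell receptor gene Mrgprb1 was detected on 3 AhR null, 2 AhR-d and 0 control arrays, and the protease gene Mcpt4 on 3, 3 and 2. Ahr had 1 probe, detected on 0 of 9 arrays with detection p-values between 0.115 and 0.833, so it gives no check of the genotype labels. Between 7901 and 9733 probes were detected per array, and mean raw signal ran from 324 to 684. Summed neutrophil markers (7 of 12 measured, with Camp, Ngp and Mmp8 detected on no array) ran from 1120 to 1930 in AhR null, 197 to 5220 in AhR-d and 187 to 215 in control arrays. Summed monocyte and macrophage markers (6 of 12 measured, with C1qa, C1qc and Ccr2 on no array) ran from 2240 to 4040, 1870 to 7390 and 1120 to 2650 in the same order. Of the 8 B and plasma cell genes listed, the 6 with a probe were detected on no array. Summed basophil markers (3 of 3) ran from 12000 to 14000, 9270 to 14100 and 10400 to 11300, and erythroid and megakaryocyte markers (7 of 10) from 4220 to 7640, 3380 to 5490 and 3550 to 5000. Between AhR null and control, 5 of 14 mast cell, 1 of 3 basophil, 3 of 7 neutrophil, 3 of 6 monocyte and 3 of 7 erythroid and megakaryocyte markers rose, and 1 of each of the last 2 lists fell. These rises and falls passed an adjusted p of 0.05 (limma), as did 12.4% of all features in either direction. With batch as a block 8, 1, 5, 4 and 4 markers of these lists passed, in the same order and either direction, beside 21.2% of all features. Of the mast cell markers Ms4a2 and Mrgprb2 then passed as higher (adjusted p = 0.01 and 0.00287) and Cpa3 as lower (-0.47, adjusted p = 0.026). Between AhR-d and control 1 of 14 mast cell markers, Hdc, rose and 0 of the other lists passed, beside 0.336% of features. With the block 2, 1, 3, 2 and 1 passed in the same order, beside 1.58%. Against AhR-d, 2 mast cell markers were higher in AhR null and 1 erythroid and megakaryocyte marker, Vwf, lower, beside 2.48%. There the block gave 3, 1, 0, 2 and 3, beside 6.74%. The part of these cell types in the values below was not tested.

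The list was read on 54 probes for 38 genes, of which 36 probes for 32 genes passed the detection filter (detection p under 0.01 on at least 3 of 9 arrays). Atf6, Eif2s1, Dnajb11 and Sdf2l1 had no probe under these symbols. Ern1, Trib3, Canx and Chac1 had 1 probe each that was detected on no array, Phgdh had 1 probe detected on 1 control array, and of 5 Vldlr probes 1 was detected, on 1 control array. Every measured gene was detected on all 9 arrays except Hyou1, Pdia6 and Sesn2, on 7 each, and Ppp1r15b, on 8. The sensors and regulators were measured for 7 of 11 genes, the chaperones for 12 of 15, degradation for 4 of 4 and the amino acid targets for 9 of 12.

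AhR null was set against control to ask which of these transcripts depend on the receptor. None of the 32 genes passed an adjusted p of 0.05 (limma, Benjamini-Hochberg over all features), where 12.4% of all features did. At an unadjusted p under 0.05 there were 5 of 32, against 28.3% of all features, and the 2 genotypes did not overlap for 6 of 32, against 34.3%. With batch as a block the count was 1, Edem1, against 21.2% of features. The median fitted log2 difference was -0.01 over the 32 genes and -0.03 over all features, and the median size of a difference, sign ignored, was 0.24 against 0.34. The 95% confidence interval of the difference lay within 1 log2 unit of 0 for 25 of the 32 genes (78.1%), against 57.5% of features. The deposited log2 values carry neither the background correction nor the quantile step used here. Under them the median of all features shifted by 0.29, and the differences of 14 of the 32 genes turned from below to above 0. These were Eif2ak3, Xbp1, Ddit3, Ppp1r15a, Hspa5, Hsp90b1, Hyou1, Creld2, Manf, Syvn1, Asns, Psat1, Gars and Sars. The signs given below for these genes are those after quantile normalisation. In bulk RNA of this kind, fewer cells of a type and less RNA per cell cannot be told apart.

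**Figure D1:**
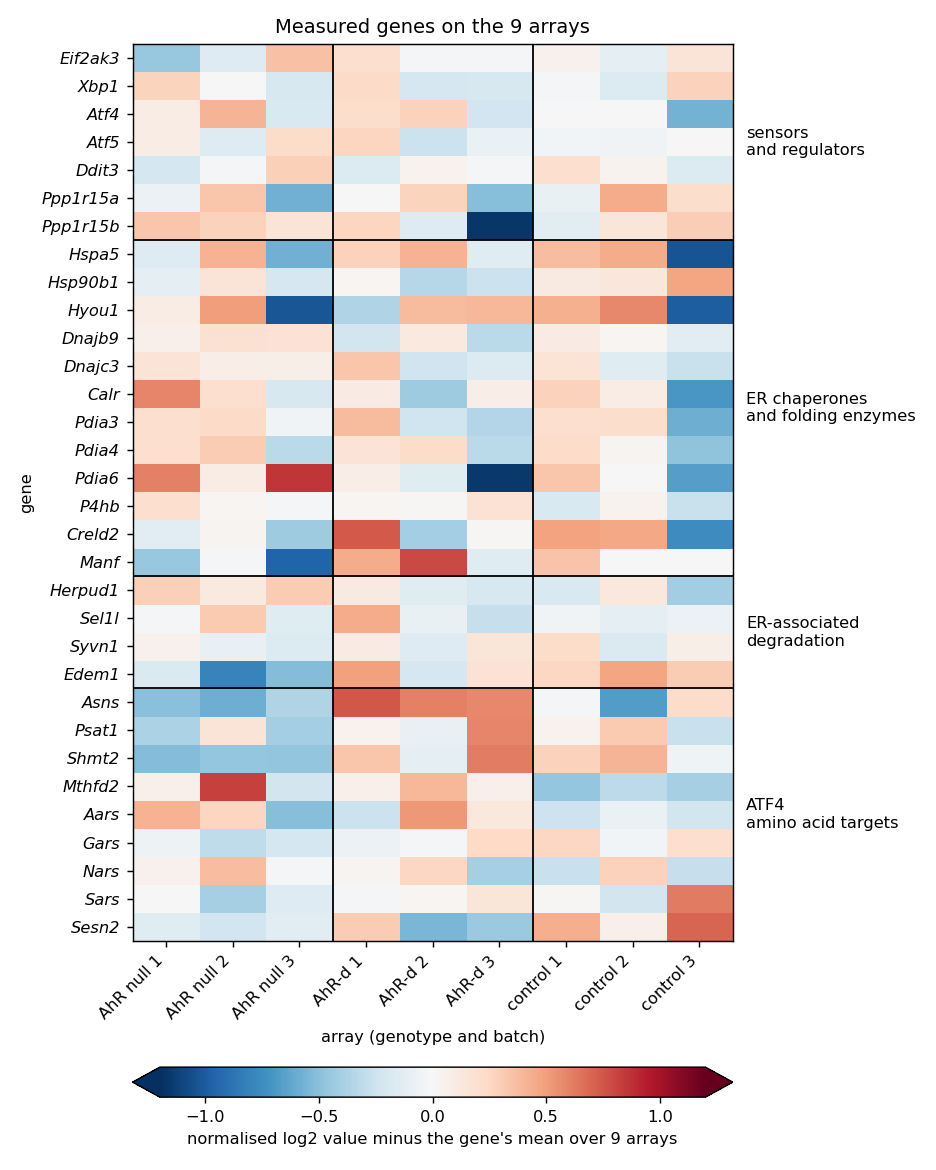
Each row is 1 of the 32 measured genes, grouped by role, and each column 1 array, with the genotype and its batch number. Colour is the normalised log2 value minus the gene's own mean over the 9 arrays, so rows are not levels relative to each other. Control replicate 3 holds several low chaperone values, and the 3 AhR-d arrays are high for Asns.

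AhR-d was set against control to ask the same of the low-affinity allele. Again 0 of 32 genes passed, against 0.336% of features. There were 2 of 32 genes at an unadjusted p under 0.05 (7.53% of features) and 3 of 32 without overlap (10.5%), and with batch as a block 0 of 32 (1.58%). The median difference was 0.04, against -0.01 over all features. The 95% interval lay within 1 log2 unit for 26 of 32 genes, or 81.2%, against 73.8% of features. AhR null and AhR-d share their control arrays, so the 2 comparisons are not independent.

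The altered genotypes were also compared with each other. Of the 32 genes 0 passed, against 2.48% of features, with 5 at an unadjusted p under 0.05 (16.7%) and 4 without overlap (23.5%). With batch as a block the count was 1, Asns, against 6.74% of features. The median difference, AhR null minus AhR-d, was 0.02 over the genes and -0.00 over all features.

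**Figure D2:**
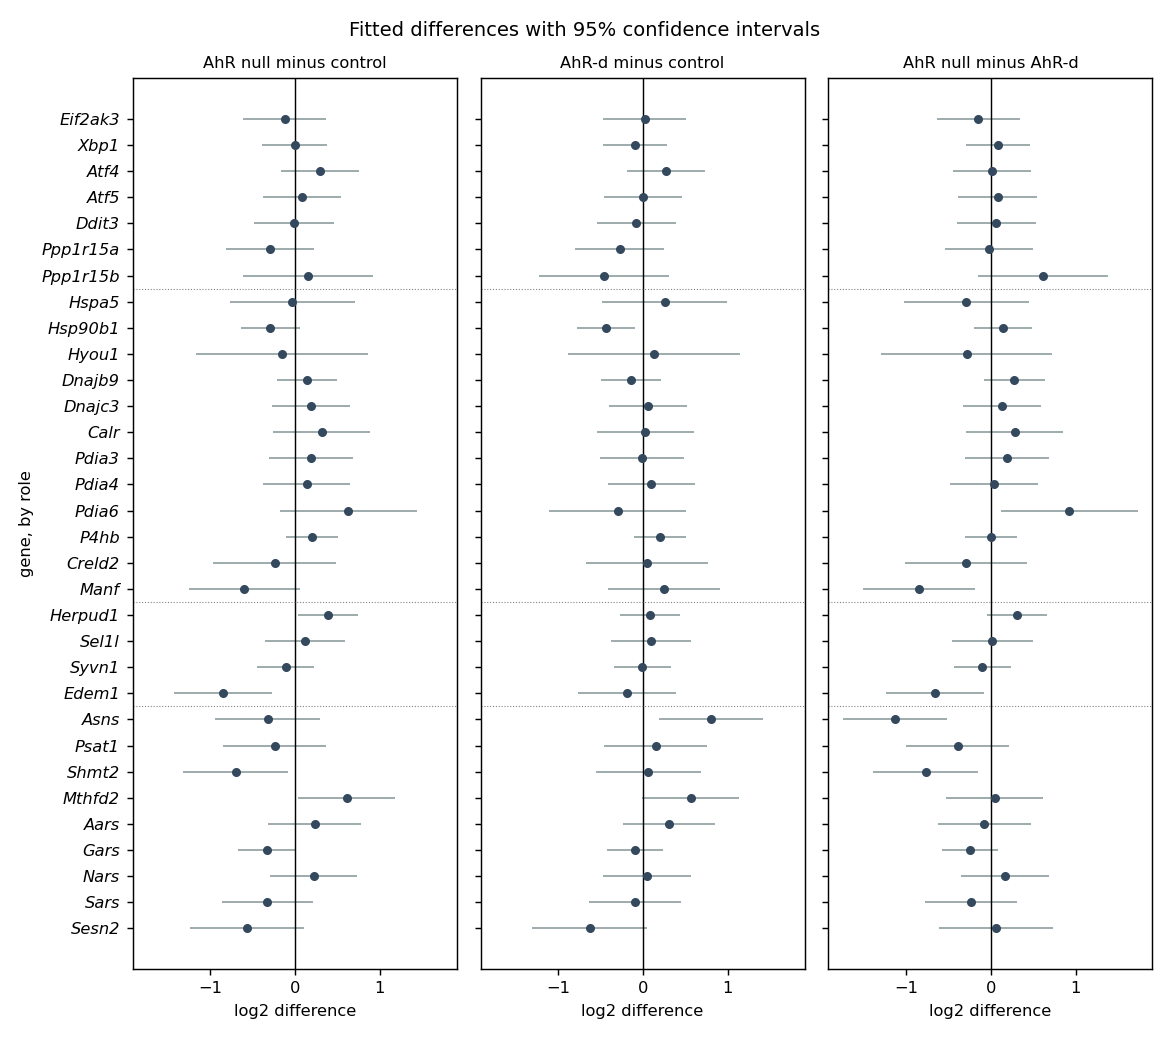
Points are fitted log2 differences of the 32 measured genes, in 3 panels for AhR null minus control, AhR-d minus control and AhR null minus AhR-d, with bars for 95% confidence intervals. Dotted lines part the roles. Fitted differences reach from -0.84 (Edem1) to 0.63 (Pdia6) in the first panel, from -0.63 (Sesn2) to 0.80 (Asns) in the second and from -1.13 (Asns) to 0.93 (Pdia6) in the third.

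Among the 7 measured sensors and regulators, none passed in any comparison, and all 7 had intervals within 1 log2 unit of 0 between AhR null and control. Atf4, the factor at the centre of the amino acid response, is controlled mainly through its translation. Its log2 values were 10.54, 10.85 and 10.27 in AhR null arrays of batches 1 to 3, 10.66, 10.72 and 10.22 in AhR-d and 10.45, 10.45 and 9.88 in control. Both altered genotypes were above control in 3 of 3 batches, while their ranges overlapped it. The fitted difference was 0.29 (SE 0.21, adjusted p = 0.403) for AhR null and 0.27 (SE 0.21, adjusted p = 0.834) for AhR-d. Without control replicate 3 these were 0.10 and 0.09, and without AhR null replicate 2 the first was 0.14.

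Ppp1r15a encodes the stress-induced subunit that directs the phosphatase to eIF2-alpha. It stood at 11.53, 11.94 and 11.02 in AhR null, 11.59, 11.87 and 11.09 in AhR-d and 11.51, 12.04 and 11.82 in control arrays. Batch 3 was the lowest in both altered genotypes and not in control. The difference was -0.29 (SE 0.24, adjusted p = 0.467) for AhR null. Ppp1r15b, its constitutive counterpart, had 6.59, 6.53 and 6.41 in AhR null, 6.51, 6.10 and 5.08 in AhR-d and 6.12, 6.40 and 6.55 in control. The lowest value was AhR-d replicate 3, and the gene was detected on 2 of 3 AhR-d arrays. AhR-d minus control was -0.46 (SE 0.36, adjusted p = 0.834), and -0.05 without AhR-d replicate 3. The ER kinase gene Eif2ak3 had 8.04, 8.34 and 8.84 in AhR null, 8.70, 8.47 and 8.48 in AhR-d and 8.54, 8.39 and 8.65 in control. The AhR null arrays spread across the whole control range, with a difference of -0.12 (SE 0.23, adjusted p = 0.77).

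Xbp1, Atf5 and Ddit3 lay close between genotypes. Xbp1, whose RNA is spliced by the Ern1 product in the active response, differed by -0.09 (95% interval -0.47 to 0.29) between AhR-d and control. This level does not separate spliced from unspliced RNA. For Ddit3, the stress factor CHOP, AhR null minus control was -0.01 (95% interval -0.48 to 0.46), and for Atf5, a factor related to ATF4, it was 0.08 (95% interval -0.38 to 0.54). A weaker second Ddit3 probe gave 0.10 for AhR null and 0.28 for AhR-d, both with adjusted p above 0.8.

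Of the 12 measured chaperone and folding genes, 0 passed in any comparison. By fitted value 7 of 12 were higher in AhR null than in control, with a median of 0.14 against -0.03 for all features. Under the deposited log2 values 12 of 12 were higher, with a median of 0.52 and of 0.23 relative to all features. Under median scaling 12 of 12 were higher, with medians of 0.71 and 0.175 in the same order. Hspa5 encodes BiP, the main ER chaperone and a standard readout of the response. Its values were 11.001, 11.57 and 10.58 in AhR null, 11.43, 11.58 and 11.01 in AhR-d and 11.52, 11.60 and 10.12 in control. All 3 genotypes were lowest in batch 3, and the control arrays alone spanned more than the genotype means did. AhR null minus control was -0.03 (SE 0.34, adjusted p = 0.969) and AhR-d minus control 0.26 (SE 0.34, adjusted p = 0.922).

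Hsp90b1, the ER form of HSP90, had 12.37, 12.64 and 12.28 in AhR null, 12.50, 12.13 and 12.22 in AhR-d and 12.59, 12.61 and 12.95 in control. The AhR-d arrays all lay below the control arrays, with a difference of -0.43 (SE 0.16, adjusted p = 0.46), and AhR null was at -0.29 (SE 0.16, adjusted p = 0.263) with overlap. Manf, an ER stress protein that is also secreted, had 6.84, 7.27 and 6.35 in AhR null, 7.75, 8.09 and 7.16 in AhR-d and 7.65, 7.30 and 7.30 in control. All AhR null values lay below all control values, with a difference of -0.60 (SE 0.31, adjusted p = 0.222), and -0.36 without AhR null replicate 3.

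Pdia6, a disulfide isomerase that also acts on the sensors, had 7.31, 6.80 and 7.56 in AhR null, 6.78, 6.56 and 5.55 in AhR-d and 7.04, 6.70 and 6.04 in control. It was higher in AhR null than in control in 3 of 3 batches, by 0.63 (SE 0.37, adjusted p = 0.293), or 0.35 without control replicate 3, and it was detected on 3 AhR null, 2 AhR-d and 2 control arrays. Pdia6 lies on chromosome 12, 18.2 Mb from Ahr, and Dnajb9 and Sel1l lie on the same chromosome at 8.71 and 56.3 Mb. P4hb, a disulfide isomerase and subunit of collagen prolyl hydroxylase, had 12.28, 12.10 and 12.05 in AhR null, 12.10, 12.09 and 12.25 in AhR-d and 11.89, 12.12 and 11.81 in control. Its AhR-d difference was 0.21 (SE 0.14, adjusted p = 0.813), with overlapping values.

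The other chaperone genes spanned, for AhR null minus control, -0.24 in Creld2 to 0.31 in Calr, the lectin chaperone calreticulin. For AhR-d minus control they ran from -0.14 in Dnajb9, a BiP co-chaperone, to 0.13 in Hyou1, a nucleotide exchange factor of BiP. Hyou1 had the widest interval, -1.16 to 0.86 for AhR null, and was near the detection limit. Creld2, a secreted ER stress protein, had a second, weaker probe with -0.54 (SE 0.23, adjusted p = 0.149) for AhR null.

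Degradation of misfolded ER proteins was represented by 4 measured genes. Edem1 encodes a lectin-like protein that hands mannose-trimmed glycoproteins to degradation. Its values were 6.98, 6.36 and 6.64 in AhR null, 7.65, 6.96 and 7.33 in AhR-d and 7.41, 7.64 and 7.47 in control. Every AhR null array lay below every control array, and the 2 lowest AhR null values also below every AhR-d value. The AhR null difference was -0.84 (SE 0.27, adjusted p = 0.0557), the smallest adjusted p of the list in that comparison, and with batch as a block it passed (adjusted p = 0.0284). Over its 20 alternatives the adjusted p ran from 0.0284 to 0.732. The difference was -0.19 (SE 0.27, adjusted p = 0.931) for AhR-d. Under the deposited log2 values, where the median of all features shifted by 0.29, Edem1 stood at -0.42 relative to that shift (-0.13 as fitted, adjusted p = 0.671).

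Herpud1 encodes an ER membrane protein of the degradation complex and is a classical response gene. It had 12.10, 11.93 and 12.12 in AhR null, 11.92, 11.67 and 11.62 in AhR-d and 11.63, 11.95 and 11.40 in control. AhR null arrays were above all AhR-d arrays, while control replicate 2 lay within their range. AhR null minus control was 0.39 (SE 0.16, adjusted p = 0.135). A second probe of nearly the same brightness gave 0.17 (SE 0.14, adjusted p = 0.465). For AhR null minus AhR-d that probe gave -0.002 (SE 0.14, adjusted p = 0.997) with overlapping values. The separation from AhR-d thus rests on the choice of probe. For Syvn1, the ubiquitin ligase of the complex, values were 11.60, 11.46 and 11.39 in AhR null, 11.65, 11.39 and 11.70 in AhR-d and 11.77, 11.37 and 11.62 in control. Its differences were -0.11 (SE 0.16, adjusted p = 0.695) for AhR null and -0.01 for AhR-d.

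The 2 kept probes of Sel1l, the partner of Syvn1, disagreed. The brighter had 8.72 ± 0.04 in control and gave AhR null minus control of 0.12 (SE 0.22, adjusted p = 0.771). The weaker had 7.11, 7.87 and 7.10 in AhR null, 6.89, 8.78 and 8.55 in AhR-d and 8.42, 8.69 and 8.18 in control, with a difference of -1.07 (SE 0.40, adjusted p = 0.105) in the fit of all probes. Its AhR null values all lay below control, so the direction for Sel1l rests on the choice of probe.

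Of the 9 measured amino acid targets, 0 passed in any comparison. Asns encodes asparagine synthetase, whose promoter with its amino acid element is printed above. Its values were 6.19, 6.11 and 6.33 in AhR null, 7.44, 7.30 and 7.27 in AhR-d and 6.67, 6.02 and 6.91 in control. The AhR-d arrays lay above all the others, while AhR null and control overlapped. AhR-d minus control was 0.80 (SE 0.29, adjusted p = 0.412) and AhR null minus control -0.32 (SE 0.29, adjusted p = 0.494). AhR null minus AhR-d, chosen for description after its values were seen, was -1.13 (SE 0.29, adjusted p = 0.0568), lower in 3 of 3 batches at -1.25, -1.19 and -0.94. It passed with batch as a block (adjusted p = 0.0227), and without control replicate 2 (0.0358) or control replicate 3 (0.0386), arrays that enter it only through the shared spread. Over its 20 alternatives the adjusted p ran from 0.0227 to 0.38. Under the deposited log2 values the difference was -0.33, or -0.57 relative to the shift of all features, and AhR-d minus control was 0.39. Under median scaling the difference was -0.76, or -1.14 relative to all features, and AhR-d minus control was 0.98. The signal of the Asns probe was near the detection limit, with detection p up to 0.0088. Of the 3 Asns probes the other 2 were detected on no array.

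**Figure D3:**
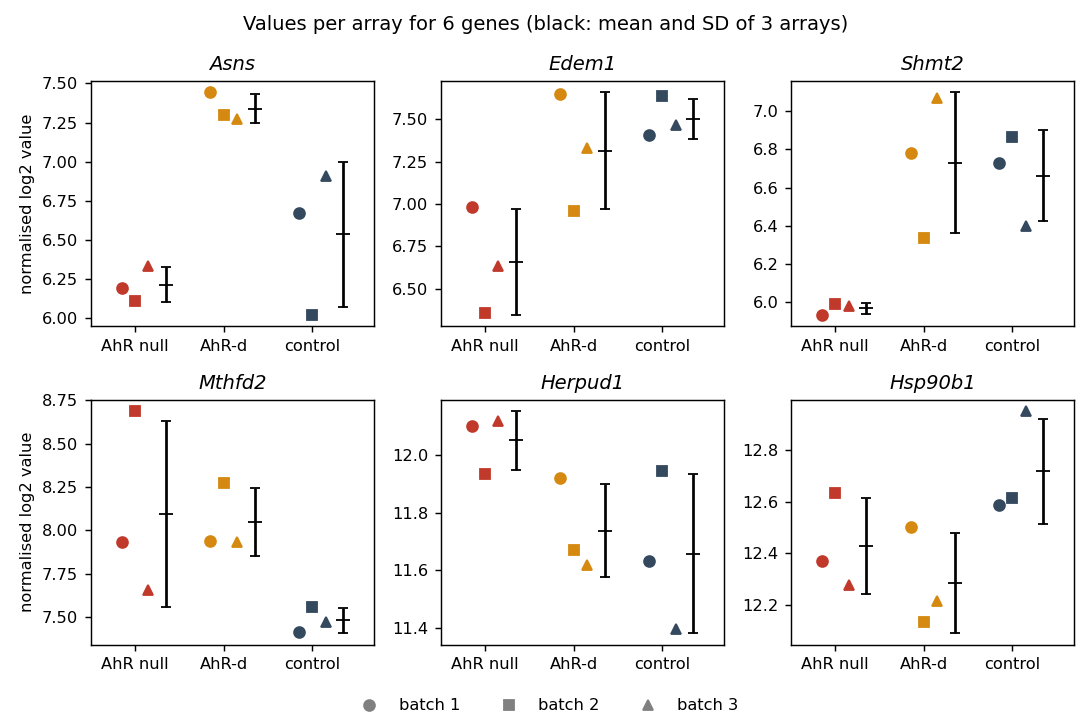
Normalised log2 values are plotted per array for 6 genes, by genotype, with symbols for the batch and black bars for the mean and SD of 3 arrays. The vertical scale differs between genes. For Asns the AhR-d arrays, 7.27 to 7.44, lie above the other 6, and for Edem1 and Shmt2 the AhR null arrays lie below all control arrays.

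Shmt2 and Mthfd2 encode neighbouring enzymes of mitochondrial one-carbon metabolism, and their differences between AhR null and control had opposite signs. Shmt2 had 5.93, 5.99 and 5.98 in AhR null, 6.78, 6.34 and 7.07 in AhR-d and 6.73, 6.86 and 6.40 in control. Its signal was near the detection limit, with detection p up to 0.0063, and a second probe was detected on no array. AhR null lay below both other genotypes without overlap, by -0.70 (SE 0.29, adjusted p = 0.131) against control and -0.76 (SE 0.29, adjusted p = 0.196) against AhR-d. Against control it was -0.09 under the deposited log2 values and -0.20 under median scaling. Relative to the shift of all features these were -0.38 and -0.74. Mthfd2 had 7.93, 8.69 and 7.66 in AhR null, 7.94, 8.27 and 7.93 in AhR-d and 7.41, 7.56 and 7.47 in control. Both altered genotypes lay above every control array, by 0.61 (SE 0.27, adjusted p = 0.15) for AhR null and 0.57 (SE 0.27, adjusted p = 0.669) for AhR-d. Without AhR null replicate 2 the AhR null difference was 0.31.

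Gars, the glycyl-tRNA synthetase, had 11.24, 10.996 and 11.10 in AhR null, 11.23, 11.29 and 11.54 in AhR-d and 11.56, 11.28 and 11.51 in control. AhR null lay below control without overlap, by -0.33 (SE 0.15, adjusted p = 0.172). The other synthetases were split, with Aars at 0.23, Nars at 0.22 and Sars at -0.32, for alanine, asparagine and serine, and adjusted p from 0.436 to 0.592. Psat1, of serine synthesis, was at -0.24 (SE 0.28) and Sesn2, a stress-induced inhibitor of mTORC1, at -0.56 (SE 0.31, adjusted p = 0.261). Sesn2 was lower than control in AhR-d too, at -0.63 (SE 0.31, adjusted p = 0.708), where it was detected on 1 of 3 arrays. By fitted value 3 of the 9 amino acid targets were higher in AhR null than in control, with a median of -0.32, against 6 of 9 for AhR-d with a median of 0.07, none past the threshold. Under the deposited log2 values 7 of 9 were higher in AhR null, with a median of 0.15 and of -0.14 relative to all features.

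Further genes of the same pathways were read from lists chosen by function, beside the 12.4% of all features called between AhR null and control. Of 17 measured amino acid transport, synthesis and tRNA charging genes, 2 fell in AhR null and 0 rose. Slc6a9, a glycine transporter, fell to 6.93, 7.33 and 7.05 in AhR null, against 8.94, 8.72 and 8.45 in AhR-d and 8.86, 8.71 and 8.70 in control. The drop against control was -1.65 (SE 0.21, adjusted p = 2.04e-04) and that against AhR-d -1.60 (SE 0.21, adjusted p = 0.00112). It passed with each array left out in turn (adjusted p at most 0.00236 and 0.0102), but not under the deposited log2 values (-0.64, adjusted p = 0.112, and -0.72, adjusted p = 0.167). Under these values the median of all features shifted upward by 0.29 against control and 0.24 against AhR-d. Vars, a valyl-tRNA synthetase, fell by 0.65 (-0.65, SE 0.20, adjusted p = 0.0478) and missed the threshold with any 1 of the 9 arrays left out (adjusted p up to 0.189).

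Of 15 further integrated stress response genes, Sesn1 rose by 1.01 (SE 0.27, adjusted p = 0.0266) and Ddit4 fell by 0.86 (-0.86, SE 0.21, adjusted p = 0.0147) in AhR null. Both encode inhibitors of mTORC1 signalling. Ddit4 had 8.52, 9.08 and 8.79 in AhR null, 9.72, 9.63 and 9.36 in AhR-d and 9.58, 9.94 and 9.45 in control, with no overlap between AhR null and the rest. Its call was lost without AhR null replicate 1 (adjusted p = 0.0793) or control replicate 2 (0.0547). That of Sesn1 was lost without any 1 AhR null array or without control replicate 1, with adjusted p up to 0.115. With batch as a block, both also passed between AhR null and AhR-d, where neither did without it, beside 6.74% of all features.

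Of 18 further ER folding genes 1 fell, P4ha1, the catalytic subunit of collagen prolyl hydroxylase that works with P4hb. Its difference was -1.37 (SE 0.40, adjusted p = 0.0383), near the detection limit, and it was lost without AhR null replicate 2 or 3 or control replicate 1 or 3 (adjusted p up to 0.15). Of 23 ER degradation and translocation genes 1 rose, Selenos, a selenoprotein of that machinery, by 0.54 (SE 0.16, adjusted p = 0.0364). It was lost without any 1 AhR null array, control replicate 1 or control replicate 3 (adjusted p up to 0.149). With batch as a block the counts were 3 of 18 and 5 of 23, beside 21.2% of all features. Of 7 measured mitochondrial tRNA synthetases 0 passed, and 1 with the block.

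Of 12 measured cytosolic heat shock genes 2 rose in AhR null and 0 fell. They were Bag3, a co-chaperone, by 0.66 (SE 0.16, adjusted p = 0.0153), and Ahsa1, an activator of HSP90, by 0.91 (SE 0.26, adjusted p = 0.037). Bag3 was 10.61, 10.50 and 10.59 in AhR null, 10.24, 10.00 and 9.93 in AhR-d and 9.90, 10.03 and 9.79 in control, with AhR null above both and the other two overlapping. Its call was lost without AhR null replicate 1 or 3 or control replicate 1 (adjusted p up to 0.0685), and that of Ahsa1 without AhR null replicate 1 or 2 or control replicate 1 or 3 (up to 0.133). Between AhR-d and control no gene of these lists passed, beside 0.336% of features. With array brightness as a covariate, of the 8 genes named from these lists Slc6a9 and Ddit4 still passed against control. Under the deposited log2 values Selenos, Sesn1, Bag3 and Ahsa1 did, while Ddit4 (adjusted p = 0.618), P4ha1 (0.145) and Vars (0.942) did not. The genes that passed there had risen in AhR null, and those that did not, Slc6a9 among them, had fallen. The median of all features shifted upward by 0.29 under these values.

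After low chaperone values were seen in batch 3, differences between batches were tested across all features with genotype in the fit. Of the 32 genes 1 passed, Hspa5, against 2.35% of features, and 8 had an unadjusted p under 0.05, against 20% of features. Hspa5 averaged 11.32, 11.58 and 10.57 in batches 1, 2 and 3 (adjusted p = 0.0185). It no longer passed without control replicate 2 (adjusted p = 0.057) or control replicate 3 (0.0809), and batch 3 then lay 0.60 below the mean of batches 1 and 2 without control replicate 3 (-0.60), against -0.88 with all arrays.

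In batch 3, 11 of the 12 chaperone and folding genes (91.7%) lay below their mean in batches 1 and 2, against 49.3% of all features. The median of this difference was -0.48 over the 12 genes and 0.00 over all features. It was -0.81 for Hyou1, -0.58 for Creld2, -0.57 for Pdia4, -0.55 for Manf and -0.49 for Pdia3, and Hsp90b1, at 0.01, was the exception. None of these passed singly. Pdia4, an isomerase, had batch 3 values of 9.06 in AhR null, 9.07 in AhR-d and 8.91 in control, below all 6 arrays of batches 1 and 2. Without control replicate 3 the count was still 11 of 12 and the median -0.28. Of the sensors and regulators 4 of 7 lay below, with a median of -0.06, from -0.49 in Atf4 and -0.44 in Ppp1r15a (adjusted p = 0.0783 and 0.0835) to 0.25 in Eif2ak3. Of the amino acid targets 4 of 9 lay below, with a median of 0.05.

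Mean raw signal ran from 324 to 684 in batch 1, 456 to 605 in batch 2 and 338 to 523 in batch 3. With the mean log2 signal of each array as a covariate, 11 of 12 chaperones were below and Hspa5 passed (adjusted p = 0.0278). Under the deposited log2 values, where 89.3% of all features were below in batch 3, 12 of 12 chaperones were, with a median of -0.55 against -0.25 for all features, and 7 of the 32 genes passed, beside 6.93% of all features. For 18 of the 32 genes the range of the 3 batch means exceeded that of the 3 genotype means (56.2%), against 43% of features.

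**Figure D4:**
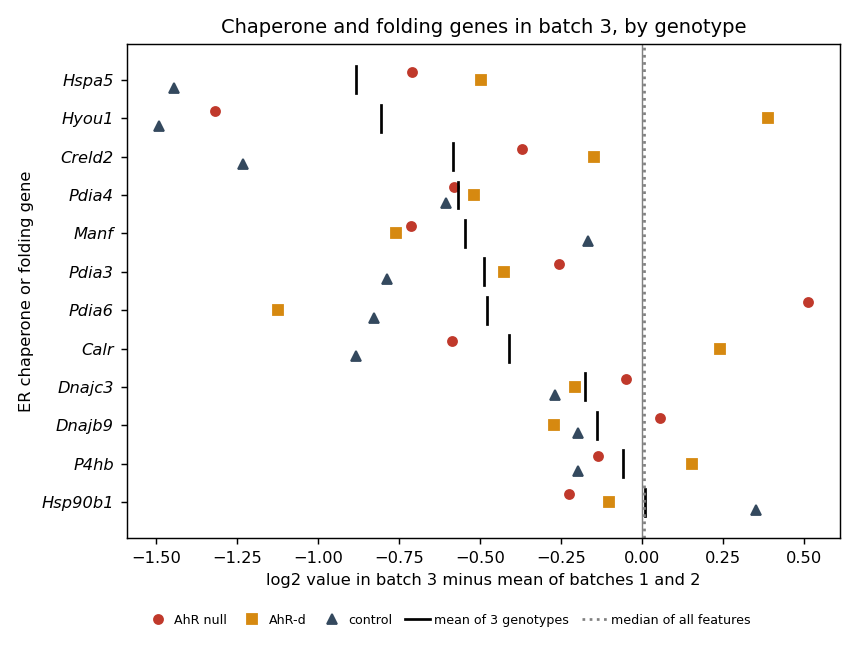
For the 12 chaperone and folding genes, points are the normalised log2 value in batch 3 minus the mean of batches 1 and 2 within each genotype, and black bars the mean of the 3 genotypes. The dotted line is the median of all features. Means lie below 0 for 11 of 12 genes. Control is the furthest below for Hspa5, Hyou1, Creld2, Calr, Pdia3, Pdia4, Dnajc3 and P4hb. Single genotypes lie above 0 for Hyou1, Calr and P4hb (AhR-d), Dnajb9 and Pdia6 (AhR null) and Hsp90b1 (control).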

How the data were processed

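Total RNA of 9 mast cell samples was read on Illumina Ref-8 beadchips. The authors deposited linear signal intensity for 25697 probes, unscaled between arrays, each with a detection p-value per the file headers. The submitters' processing notes name GenomeStudio, with no version. A table of log2 values that the authors deposited equals the log2 intensity plus 1 constant per array, set so that each array's median is 8. A further table of probes chosen by the study was not used.

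Here intensities were background-corrected, given an offset of 16 and quantile-normalised (neqc, limma 3.58.1, R 4.3.3). Probes with a detection p under 0.01 on at least 3 arrays were kept (9777), and a gene was represented by its brightest probe, giving 6864 named genes and 585 unnamed probes. The platform annotation gave 23978 probes 1 symbol, and 23962 matched RefSeq genes of GRCm38.p6. One limma fit with a mean per genotype and an intensity trend (6 residual degrees of freedom) gave all 3 comparisons. Adjusted p-values are Benjamini-Hochberg over 7449 features, values are normalised log2 with SD over 3 arrays, and array number limits the precision. The fit was also run on simulated arrays with independent noise and no batch effect, which cannot speak to arrays that share a batch.

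The genes, their roles and all lists were chosen with earlier results of these data known. Named genes were, per role, the 3 with the smallest p for AhR null and the 2 for AhR-d, and of each further list the genes past the threshold. Others, Asns between AhR null and AhR-d among them, were described after their values were seen, as was the batch test, and the alternatives for it and for the further lists were chosen after seeing the data.

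The labels state that each batch held all genotypes. Deviations from genotype means correlated at 0.111 to 0.361 for the 9 pairs of arrays of a batch and -0.361 to 0.0676 for the 18 other pairs. Batch was therefore taken as pairing the arrays in the block fit. The main fit held no batch term, so SEs, intervals and p-values given without the block ignore this pairing. Between AhR null and control 21.2% of all features passed with the block, against 12.4% without it. A fit with batch as a block stands beside the calls, or the counts of calls, that it changes.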

Additional observations from a re-analysis of the deposited data

How the results depend on the processing

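Each result was recomputed under 18 to 20 alternatives, 9 of which left out 1 array. Pdia6, Ppp1r15b and P4ha1 have 19, since they are not detected on all arrays, and the batch results 18, without the block and the fit of only the arrays compared. The count of genes called between AhR null and control, 0 in the text, was 1 under the deposited log2 values (Pdia6), under median scaling (Mthfd2), and with probes detected on all arrays, the mean over probes or the replicate block (Edem1 in each of these 3), and it was 0 with any array left out. Between AhR null and AhR-d the count was 1, Asns, with no background correction, an offset of 50, probes detected on all arrays, the mean over probes, the replicate block or only the arrays compared, and 0 to 1 with an array left out. Between AhR-d and control it was 0 under all 20. Between batches, 7 genes passed under the deposited log2 values and 3 under median scaling, beside 6.93% and 2.82% of all features, and 0 to 1 with an array left out. The block changed no other call of the 42 genes. The median difference moved to 0.39 (deposited log2 values) and 0.59 (median scaling) for AhR null against control, and to 0.33 and 0.39 against AhR-d. The median of all features moved with it, to 0.29 and 0.53, and to 0.24 and 0.38, which left the genes at 0.10 and 0.06, and at 0.10 and 0.00, relative to it. Signs turned under the deposited log2 values and median scaling, in that order, in 14 and 14 of the 32 genes for AhR null against control, 6 and 9 for AhR-d against control and 11 and 11 for AhR null against AhR-d. Among the genes named by rule these were, for AhR null against control in Ppp1r15a (0.20, 0.25), Eif2ak3 (0.34, 0.53), Manf (0.0127, 0.0360), Hsp90b1 (0.16, 0.21), Syvn1 (0.34, 0.40) and Gars (0.13, 0.18), and for AhR-d against control in Edem1 (0.0138, 0.0271). Herpud1 in AhR-d turned to -0.0358 with array brightness as a covariate and ran from -0.0514 to 0.2231 with an array left out, and Eif2ak3 in AhR null from -0.3409 to 0.0629. The cause of the turned signs was not tested. Relative to the shift of all features under the deposited log2 values, Xbp1 (0.15), Hspa5 (0.11), Ddit3 (0.09), Eif2ak3 (0.05) and Syvn1 (0.05) stayed above 0. This is for AhR null against control, where the rest of the 14 turned genes lay below 0 on that scale. Under median scaling only Ddit3 (0.12) of these genes stayed above 0 relative to the shift. Of 418 recomputed differences of named genes, 387 kept sign and side of the threshold, 13 newly passed and 18 turned. The weak signals of Hyou1, Pdia6, Sesn2, Ppp1r15b, Shmt2 and Asns, near the detection limit, bound what could be seen for these genes.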
